A study of Homo sapiens with 4 samples.

Results

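The transcriptional response of RC-K8 to interleukin-21 (IL-21) was read as the difference between a pair of arrays, RC-K8 kept for 6 h with 100 ng/mL of IL-21 minus RC-K8 left untreated. These are 2 of the 4 arrays of the series, chosen by their sample titles. RC-K8 is an established line from diffuse large B-cell lymphoma whose cells undergo apoptosis with IL-21, per the submitters' design text, and no genetic change beyond the line itself is named. The other 2 arrays hold RC-K8-R, a resistant derivative obtained over 10 weeks in rising IL-21, untreated or treated in the same way, and serve here to select probes and as values set beside those of RC-K8. Each group was 1 culture on 1 array, with total RNA in Cy5 and a common human reference RNA in Cy3 on every array.

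IL-21 is made by T helper cells and acts on B cells through a receptor of IL21R and the common gamma chain IL2RG. The receptor activates JAK1 and JAK3, which phosphorylate STAT proteins, mainly STAT3. In B cells the cytokine is known to promote either differentiation into plasma cells or death, depending on the other signals the cell receives.

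All levels below are centred log2 ratios of sample to reference, and all differences are log2 differences, treated minus untreated, formed for each probe, with the median over probes standing for a gene. A difference of 1 is 2-fold, the limit used for counting. The log base is read as 2 from the range of the values and is not stated; if it were natural, every fold would be larger and no direction would turn. There is no replicate of either group, so no test was run, and the only error that can be given for a gene is the SD between its probes. With whole cultures on the array, fewer cells of a kind and less RNA per cell cannot be told apart.

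The arrays carried 25491 probe values for untreated and 25246 for treated RC-K8, and 13446 genes had a value on all 4 arrays. The B cell label was checked on 8 measured marker genes, whose median ratio to the reference was 1.54 untreated and 1.58 treated. Gene by gene these markers were lower with IL-21: their median difference was -0.65, with 2 of 8 above 0, POU2AF1 2-fold higher (1.28) and CD79B (-2.54) and BTK (-1.51) 2-fold lower. MS4A1, the CD20 antigen, was high at 6.20 and 5.21, whereas BTK, a kinase of B cell receptor signalling, lay below the reference at -2.06 and -3.58. Markers of hepatocytes (median -5.56 untreated), fibroblasts (-3.72), epithelial cells (-2.96) and T and NK cells (-1.82) lay below the reference, and myeloid markers lay near it (0.07). In the treated array these medians were -5.75, -3.85, -2.96, -1.85 and 0.19. Their part in the results was not tested.

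The response was broad and nearly balanced in direction. With IL-21, 193 genes were 2-fold or more higher (1.44% of those measured) and 224 were 2-fold or more lower (1.67%). At 1.5-fold the counts were 782 higher (5.82%) and 798 lower (5.93%). Most differences were small: the lower and upper quartiles over all genes were -0.24 and 0.18, the median was -0.04, and 45.1% of genes were above 0. In RC-K8-R the quartiles were -0.11 and 0.11, and 0.342% and 0.602% of genes passed 2-fold higher and lower.

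**Figure D1:**
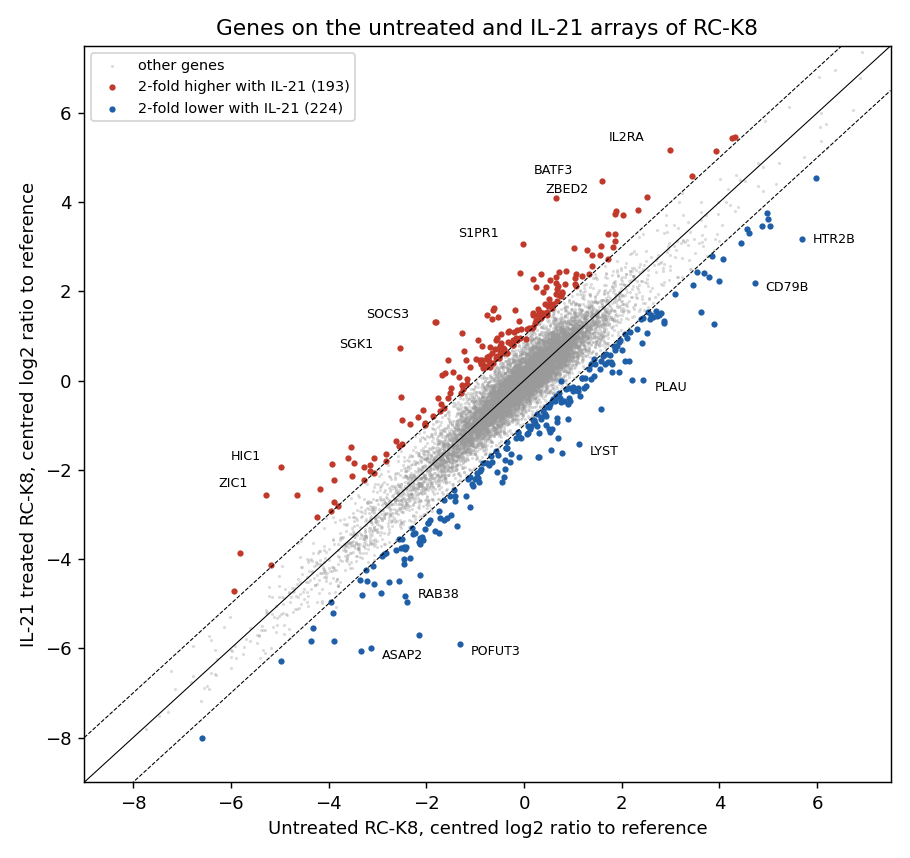
Centred log2 ratio to the reference of each of 13446 genes on the untreated (horizontal axis) and IL-21 (vertical axis) arrays of RC-K8, 1 array each. The solid line marks equality and the dashed lines 2-fold; the 193 red genes lie above and the 224 blue genes below, spread over the whole range of ratios.

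The median ratio of the 193 higher genes went from -0.48 on the untreated array to 0.91 on the treated one, while genes 2-fold lower went from 0.31 to -1.03. A mean ratio below -2, where the sample gives far less signal than the reference, was found for 26 of the 193 higher genes (13.5%) and 59 of the 224 lower genes (26.3%), against 7.53% of all genes. Beyond the low end, the share past 2-fold was also large among the 249 genes with a mean ratio above 2, at 8.43% higher and 11.6% lower. At the limit itself stood TGIF1 (1), R3HDM1 and NOP2 (both 1.004) just inside, with FABP5 (0.9995), HPR (0.998) and ADISSP (0.997) just outside. On the lower side ARID2 and ZFAT were at -1 and DYNC2H1 at -1.004, with NCEH1 and SLC5A4 (both -0.999) and OLFML2A (-0.998) outside.

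Genes of unlike function were among those with the largest positive differences. SOCS3 (3.13), CEMIP2 (3.13), MYC (3.02, with probes that disagreed), BATF3 (2.86) and IL2RA (2.18) were also among them and are described further below. ZBED2, which encodes a BED-type zinc finger factor, went from 0.66 untreated to 4.09 treated, a 10.7-fold difference. SGK1, a serum- and glucocorticoid-regulated kinase related to AKT, went from -2.54 to 0.74, and S1PR1, the receptor through which lymphocytes sense sphingosine-1-phosphate and leave lymphoid tissue, from -0.02 to 3.06. HIC1 (-4.96 to -1.93) and ZIC1 (-5.29 to -2.55), both transcription factors, were far below the reference on both arrays. The pair stayed below it with IL-21. JMY, a cofactor of p53 that also nucleates actin, went from -0.08 to 2.42, and TP53BP2, a p53-binding protein, from 0.19 to 2.28. Both lay near the reference before treatment and well above it after. LAMB3, a laminin chain, went from -2.52 to -0.38, and SLCO4A1, an organic anion transporter, from -3.55 to -1.48.

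The lowest genes included some far below the reference and some above it. POFUT3, a fucosyltransferase, went from -1.32 to -5.90, and ZNF404, a zinc finger gene, from -2.15 to -5.71. The ARF GTPase-activating protein ASAP2 (-3.13 to -5.995), CDIP1 (-3.34 to -6.06), RAB38 (-2.39 to -4.95) and the homeobox gene PRRX2 (-2.43 to -4.83) were also far below the reference, as was the receptor EPHB6 (-3.90 to -5.83). Several others lay above it before treatment. HTR2B, a serotonin receptor, went from 5.68 to 3.17, the bradykinin receptor BDKRB2 from 3.63 to 1.54, and PLAU, the urokinase protease, from 2.44 to 0.01. All 3 stayed at or above the reference with IL-21. LYST, a regulator of lysosome traffic, crossed it, from 1.13 to -1.42, as did MYB, a transcription factor of blood progenitors, from 0.56 to -1.56. KREMEN2, a receptor that restrains WNT signalling, went from 1.58 to -0.63, and CLIP2, which links membranes to microtubules, from 2.20 to 0.02.

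**Figure D2:**
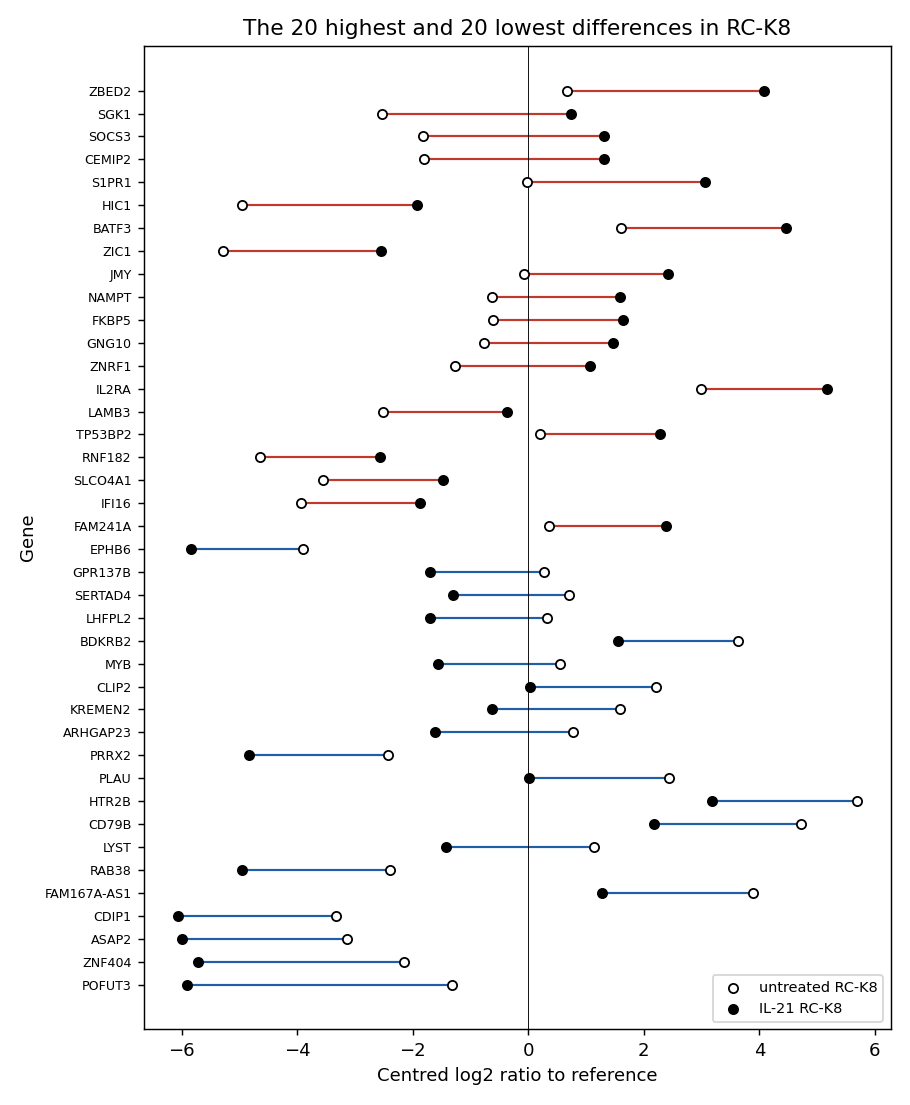
Centred log2 ratio to the reference on the untreated (open) and IL-21 (filled) array of RC-K8 for the 20 highest and 20 lowest genes whose probes share a direction. ZBED2 moved from 0.66 to 4.09 and POFUT3 from -1.32 to -5.90; lines are red for higher and blue for lower with IL-21.

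Most 2-fold genes rest on a single probe, 300 of 417. Of the 117 with more, 113 had every probe in 1 direction and 68 had every probe past 2-fold; the median SD between probes was 0.25 for these 117 and 0.16 for all 4379 genes with several probes. Probes of a gene read the same 2 cultures, so their SD says nothing of the spread between cultures. Among higher genes with several probes in 1 direction, CEMIP2, a cell-surface hyaluronidase, led at 3.13 ± 0.27 (SD between probes, 2 probes). NAMPT, which makes the NAD precursor nicotinamide mononucleotide, was at 2.36 ± 0.15 (3 probes), and the E3 ubiquitin ligase ZNRF1 at 2.19 ± 0.20 (4 probes). FKBP5, a cochaperone of the glucocorticoid receptor, was at 2.25 ± 0.10, and GNG10, a G protein gamma subunit, at 2.23 ± 0.15, each on 2 probes. In all 5 genes the probes lay within 0.5 of each other. Less even were IL2RA, the alpha chain of the IL-2 receptor, whose probes were at 1.498 and 2.855, and TMPRSS3, at 0.88 and 2.79. FNIP2 (2.02 ± 0.30), a folliculin partner in nutrient sensing, PDCD4 (1.72 ± 0.21), an inhibitor of EIF4A, PPA2 (1.68 ± 0.79), a mitochondrial pyrophosphatase, and TRIB1 (1.51 ± 0.02), a pseudokinase, were also higher on both probes.

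Among genes with several probes, the lower genes were led by SERTAD4 (-1.99 ± 0.59, 2 probes) and by DDR1, a collagen receptor kinase, at -1.88 ± 0.44 on 3 probes. MYLK, the myosin light chain kinase, was at -1.82 ± 0.34, and RASSF4, a RAS-association domain protein, at -1.75 ± 0.67. The lambda light chain joining segment IGLJ3 (-1.75 ± 0.02) was lower on both probes, but such probes can share sequence with other immunoglobulin genes. The survival gene BCL2L1 (BCL-XL) went from 0.53 to -1.14. CREM, a cAMP-responsive transcription factor, was lower on all 4 of its probes (-1.53 ± 0.15), as was MKNK2, a kinase that phosphorylates EIF4E (-1.43 ± 0.40). DLG5 (-1.51 ± 0.04), KDM2B (-1.38 ± 0.08), a histone demethylase, and B3GALT4 (-1.39 ± 0.23), a galactosyltransferase, had close probes. In SIRPA, a receptor for CD47, and ANKRD36BP2 1 of 3 probes differed little (-0.20 and -0.12), and their medians of -1.59 and -1.43 rest on the other two.

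**Figure D3:**
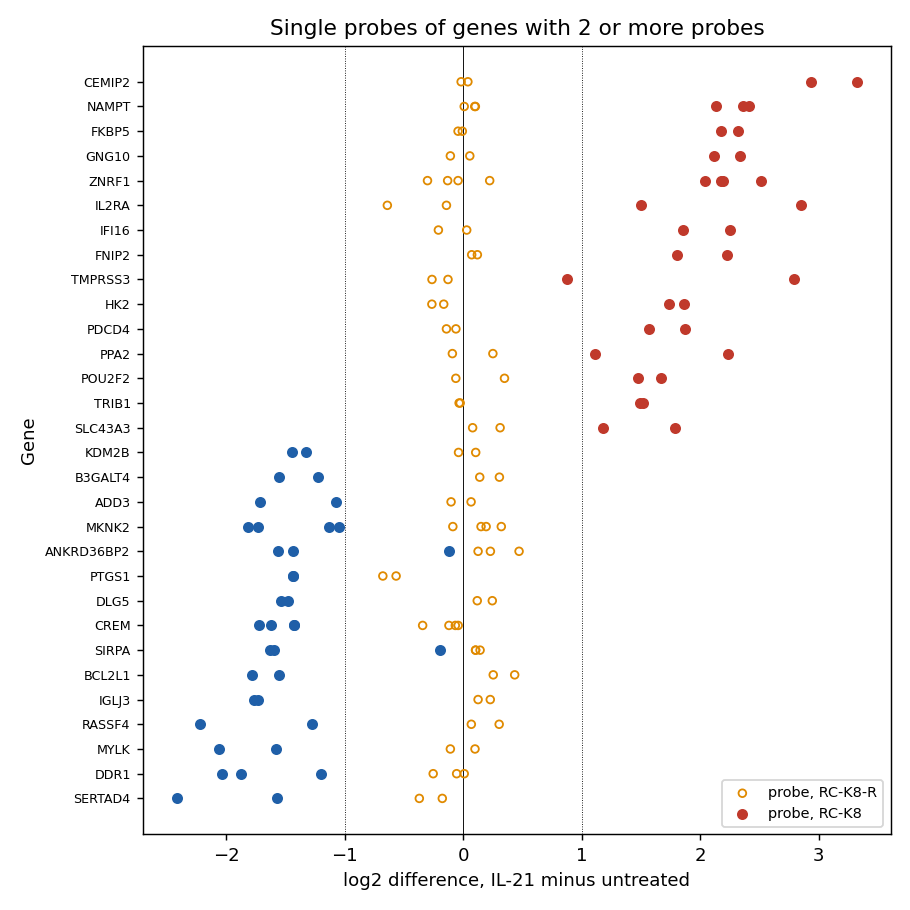
log2 difference, IL-21 minus untreated, of each probe for the 15 highest and 15 lowest genes with 2 or more probes in 1 direction. Filled points are RC-K8 and open points RC-K8-R; NAMPT probes lie between 2.13 and 2.41 in RC-K8, and open points stay within 1 of 0.

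Gene families were then described through 46 lists with 1674 genes, of which 1468 were measured. The lists hold 59 of the 193 higher and 26 of the 224 lower genes, and their median difference was above 0 in 24 lists and below 0 in 22. Lists share members, so their counts do not add up. The lists and their members were chosen with earlier results of these data known. A list's counts are read against the background of all genes given above (1.44% higher, 1.67% lower, 45.1% above 0).

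**Figure D4:**
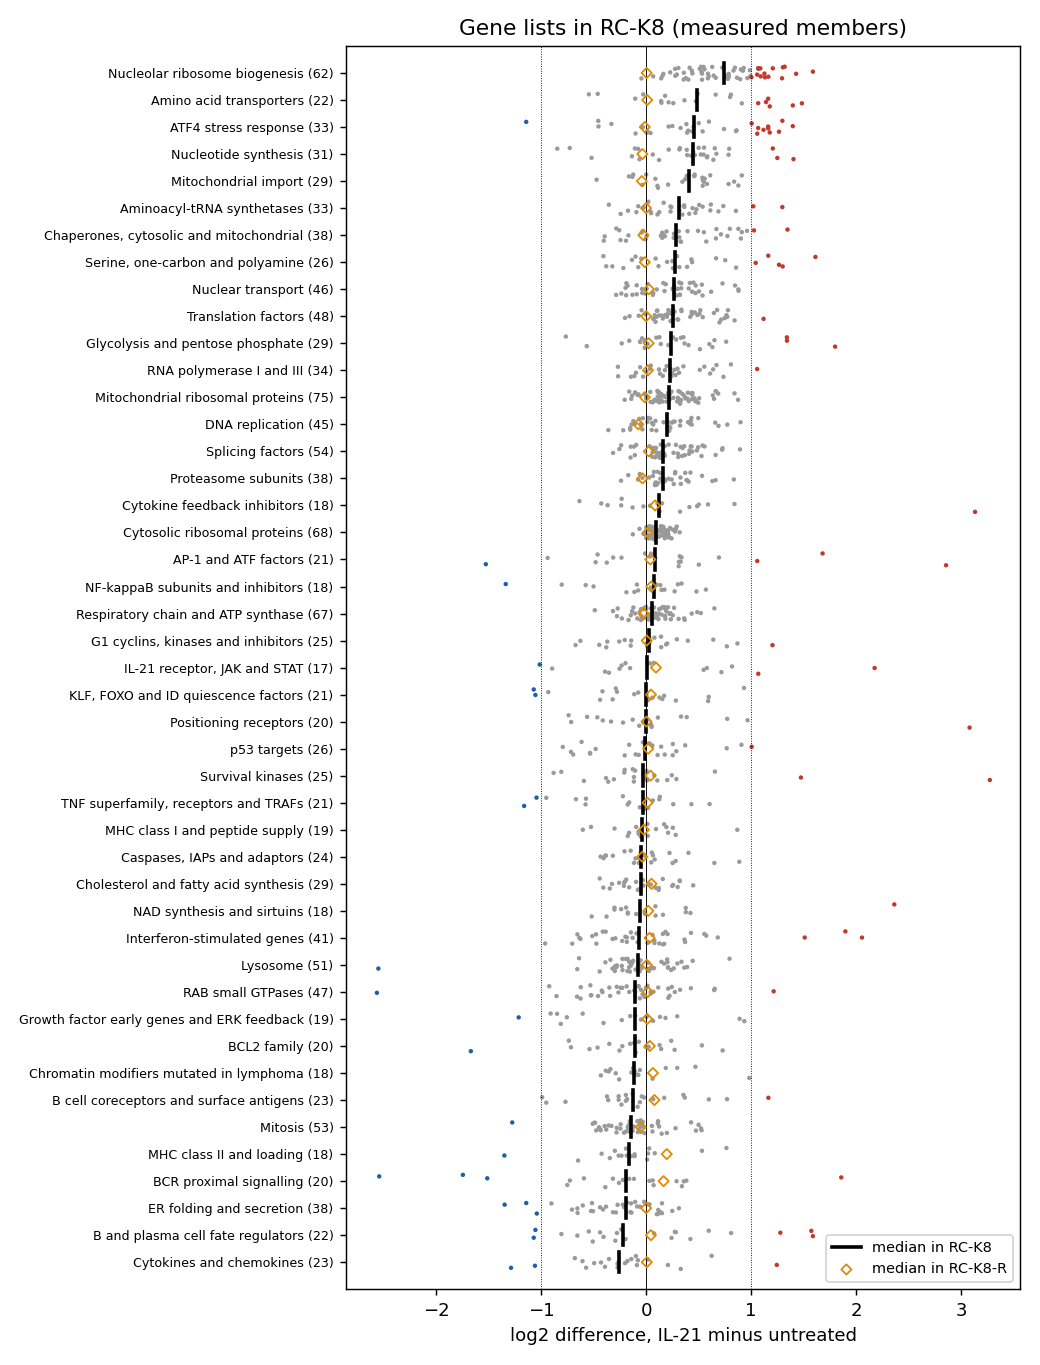
log2 difference, IL-21 minus untreated, in RC-K8 for the measured members of 45 gene lists (points; red and blue are 2-fold higher and lower; vertical jitter only), with the list median in RC-K8 (bar) and RC-K8-R (diamond). List medians in RC-K8 run from -0.26 for cytokines and chemokines to 0.74 for nucleolar ribosome biogenesis.

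In the receptor pathway itself, 17 of 21 listed cytokine receptor chains, JAKs and STATs were measured, with a median of 0.01, 9 above 0, 2 at 2-fold higher and 1 at 2-fold lower. IL2RA went from 2.996 to 5.17 and STAT3, the main STAT of this receptor, from 1.06 to 2.13 (1.07 ± 0.27, 3 probes). IL10RA, a chain of the IL-10 receptor, was lower (2.06 to 1.05; -1.01 ± 0.33, 3 probes). The receptor chains of IL-21 differed less: IL21R was at 2.94 and 3.02, and IL2RG at 0.80 and 0.41. Of 18 measured inhibitors of cytokine signalling, SOCS3, which blocks JAK activity at the receptor, was the only one past 2-fold (-1.82 to 1.31), and 11 were above 0. Among 25 measured PI3K, AKT, PIM and ribosomal S6 kinases and their regulators, SGK1 and RPS6KA5 were 2-fold higher and 10 were above 0. The RPS6KA5 probes disagreed in size, at 0.21 and 2.74.

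Transcription factors of the AP-1 and ATF families went both ways. BATF3 went from 1.61 to 4.46 and BATF from 2.02 to 3.70; both are AP-1 partners that bind with IRF factors in lymphocytes. ATF3, a stress-induced factor, went from 1.32 to 2.38, and CREM was the only listed member 2-fold lower. The 21 measured members had a median of 0.09 with 13 above 0. MYC was at -0.65 and 2.38 on one probe, at -2.37 and 1.38 on another, and at 0.72 and 0.65 on the third. Thus 2 of its 3 probes differed by over 3 and the third by -0.08. Its partner MAX was nearly level (0.28 and 0.32). Growth factor early genes and ERK feedback inhibitors had a median of -0.10 and 8 of 19 above 0, and the nuclear receptor NR4A1 (-1.97 to -3.19) was their only 2-fold member. With all probes that had a value on both RC-K8 arrays NR4A1 was at -0.42, short of 2-fold. NF-kappaB subunits and inhibitors had a median of 0.07 in 18 members, and the inhibitor NFKBIE alone passed 2-fold (1.44 to 0.10).

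Regulators of B cell and plasma cell fate went both ways. Of 22 measured, BCL6, the repressor that maintains the germinal centre program, went from 2.52 to 4.11, POU2F2 (OCT2) from 1.72 to 3.30, and its coactivator POU2AF1 from 0.65 to 1.93. FOXP1 (0.49 to -0.56; -1.05 ± 0.03, 2 probes) and TCF3, an E protein that also stands on the list of KLF, FOXO and ID factors (1.61 to 0.54; -1.07 ± 0.32), were 2-fold lower. The list had a median of -0.22 with 10 members above 0.

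The promoters of BCL6 and IRF1 are shown because both genes were higher and because their RefSeq windows hold the STAT-type palindrome TTCNNNGAA. Each window spans 250 bases before to 50 after an annotated start, so that base 251 is the start, on build GRCh38.p14, and the capitals mark the motif. The motif reads the same on both strands, and no 2 matches overlap.
BCL6 (chr3:187745419-187745718, minus strand): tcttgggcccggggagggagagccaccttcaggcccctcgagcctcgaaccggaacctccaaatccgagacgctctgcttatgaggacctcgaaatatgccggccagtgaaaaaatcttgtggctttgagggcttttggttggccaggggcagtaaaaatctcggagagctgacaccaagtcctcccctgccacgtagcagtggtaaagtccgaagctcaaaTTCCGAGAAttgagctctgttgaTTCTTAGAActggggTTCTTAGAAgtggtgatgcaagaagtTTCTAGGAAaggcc
IRF1 (chr5:132490724-132491023, minus strand): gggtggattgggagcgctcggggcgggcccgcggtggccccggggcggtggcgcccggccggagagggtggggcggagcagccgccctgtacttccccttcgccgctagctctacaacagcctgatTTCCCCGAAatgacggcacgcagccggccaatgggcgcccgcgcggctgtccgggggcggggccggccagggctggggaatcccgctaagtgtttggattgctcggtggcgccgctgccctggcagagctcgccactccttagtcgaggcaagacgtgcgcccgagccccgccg
In the BCL6 window the matches begin at bases 223, 246, 261 and 287, and in the IRF1 window at base 127. No match was found in the 2 windows of SOCS3 or in the other window of BCL6. Among 2-fold higher genes, 4.98% of 221 windows held it, against 4.39% of 319 windows of 2-fold lower genes, 6.22% of 15401 windows of all measured genes and 7.66% of all 35116 RefSeq windows. A match is a description of these letters and not evidence of binding.

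Some B cell receptor signalling genes were lower and others were level or higher. CD79B, a signalling chain of the receptor, went from 4.72 to 2.18, whereas its partner CD79A was level (0.95 and 0.99). Among the kinases, TEC went from -0.41 to -2.16 and BTK was 2.85-fold lower at ratios far below the reference, while LYN, which can both start and restrain receptor signalling, went from 1.87 to 3.73. In all, 1 of 20 measured members was 2-fold higher, 3 were 2-fold lower and 8 were above 0, with a median of -0.19. Coreceptors and surface antigens had a median of -0.13, with 7 of 23 above 0. CD80, a costimulatory ligand, was the only one past 2-fold, on probes at 0.41 and 1.93, and MS4A1 stood just short of 2-fold lower at -0.99.

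Antigen presentation genes were mostly near 0. Of 18 measured class II and loading genes 6 were above 0 (median -0.16), and HLA-DMB, which edits the peptides held by class II molecules, was 2-fold lower (4.43 to 3.08). Class I and peptide supply genes had a median of -0.04 and none at 2-fold; TAP1, a subunit of the peptide transporter, was their highest (1.14 to 2.01) and PDIA3 their lowest (0.56 to -0.10). Interferon-stimulated genes had 20 of 41 above 0 and a median of -0.07. At 1.5-fold 4 members were higher and 5 lower, while at 2-fold 3 members were higher and none lower. The 3 at 2-fold were the DNA sensor IFI16 (-3.93 to -1.87; 2.06 ± 0.28, 2 probes), the transcription factor IRF1 (-1.24 to 0.66) and the guanylate-binding protein GBP2 (-0.55 to 0.96).

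Secreted signals were lower on balance. Of 23 measured cytokines and chemokines 18 were below 0, with a median of -0.26, the lowest of the 46 lists. IL16 (0.27 to -1.01; -1.29 ± 0.65, probes at -1.74 and -0.83) and TNF (3.85 to 2.79; -1.06 ± 0.08, 2 probes) were 2-fold lower, and CXCL8, the neutrophil chemokine, was 2-fold higher at ratios below the reference (-3.15 to -1.90). Receptors and adhesion molecules that position lymphocytes had a median near 0, with 10 of 20 above 0 and S1PR1 alone past 2-fold.

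Nucleolar ribosome biogenesis, the making of ribosomal RNA and its assembly into subunits, was the family with the highest median. Of 62 measured members 61 were above 0, 38 were 1.5-fold and 15 were 2-fold higher, and none was 1.5-fold lower; the median was 0.74. The highest were the RNA helicase DDX21 (0.86 to 2.45), WDR43 (1.38 to 2.81), a part of the small subunit processome, NOP56, a core box C/D snoRNP protein (1.32 ± 0.29, 3 probes), and LYAR, a nucleolar zinc finger protein (-0.46 to 0.84). RRP9 (0.18 to 1.48), which binds the U3 snoRNA, BOP1 (-0.06 to 1.15) and WDR12 (-0.43 to 0.74), which act together on the large subunit, and DDX10 (0.38 to 1.51) followed. RRP12, WDR3, NCL, NOL6, WDR74, POLR1B and NOP2 made up the rest, between 1.004 and 1.13. In RC-K8-R the same members had a median of 0.01.

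**Figure D5:**
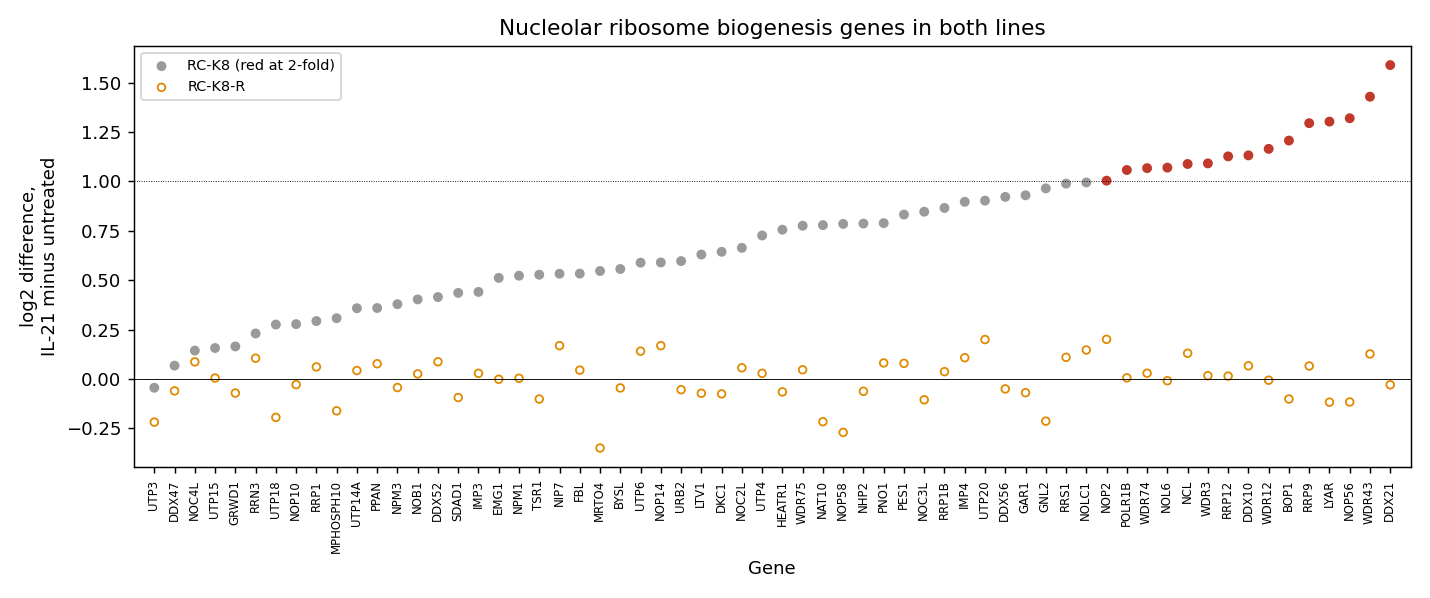
log2 difference, IL-21 minus untreated, of the 62 measured nucleolar ribosome biogenesis genes, ordered by their value in RC-K8 (filled; red at 2-fold) with RC-K8-R beside it (open). RC-K8 values run from -0.04 for UTP3 to 1.59 for DDX21.

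The promoters of DDX21, WDR43 and LYAR are shown because they are the highest of these genes whose windows hold CACGTG, the E-box to which MYC and MAX are known to bind. The windows and build are as above, and the capitals mark the motif, which reads the same on both strands.
DDX21 (chr10:68956397-68956696, plus strand): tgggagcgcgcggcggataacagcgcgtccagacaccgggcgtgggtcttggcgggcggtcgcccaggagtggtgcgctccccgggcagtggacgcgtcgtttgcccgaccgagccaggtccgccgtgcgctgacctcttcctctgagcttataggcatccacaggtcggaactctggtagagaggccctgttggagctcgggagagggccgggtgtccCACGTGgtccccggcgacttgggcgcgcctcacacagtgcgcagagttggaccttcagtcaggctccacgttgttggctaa
WDR43 (chr2:28894417-28894716, plus strand): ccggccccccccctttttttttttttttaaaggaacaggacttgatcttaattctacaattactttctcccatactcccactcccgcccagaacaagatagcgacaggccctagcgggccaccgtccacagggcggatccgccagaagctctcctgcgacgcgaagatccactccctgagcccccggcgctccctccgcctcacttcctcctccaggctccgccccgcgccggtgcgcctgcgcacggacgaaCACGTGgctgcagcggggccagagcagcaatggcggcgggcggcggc
LYAR (chr4:4289972-4290271, minus strand): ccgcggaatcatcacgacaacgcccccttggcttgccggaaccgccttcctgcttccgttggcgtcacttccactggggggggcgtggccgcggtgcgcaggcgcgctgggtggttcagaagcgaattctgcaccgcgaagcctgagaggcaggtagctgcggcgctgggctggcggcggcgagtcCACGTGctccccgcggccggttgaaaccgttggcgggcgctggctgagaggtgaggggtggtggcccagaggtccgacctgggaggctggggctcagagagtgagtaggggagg
The E-box begins at base 220 in DDX21, at base 254 in WDR43 and at base 187 in LYAR. DDX21 and LYAR each had 2 windows, and only the 1 shown held it. The next count, of genes with the E-box, leaves out windows of 1 chromosome, and the shares after it are per window. The E-box was found in at least 6 of the 13 genes of this family at 2-fold that had a window. Of 221 windows of 2-fold higher genes 18.6% held it, against 4.70% of 319 windows of 2-fold lower genes, 9.06% of 15401 windows of all measured genes and 7.26% of all 35116 RefSeq windows. In the whole nucleolar family 38.7% of 62 windows held it. Windows of 1 gene are not independent, and the shares are given as a description.

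Other parts of the protein-making machinery lay above 0 by less. RNA polymerase I and III subunits and factors had 27 of 34 above 0 (median 0.23), with POLR1B, the second-largest subunit of polymerase I, alone at 2-fold (0.57 to 1.63). Translation factors had 43 of 48 above 0 (median 0.26), and their 2-fold member was EIF4EBP1, an inhibitor of the cap-binding protein EIF4E (-0.84 to 0.28). Aminoacyl-tRNA synthetases had 27 of 33 above 0 (median 0.32), with WARS1 (0.42 to 1.72) and FARSB (1.02 on both of its probes) at 2-fold. None of these lists had a 2-fold lower member.

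Ribosomal proteins themselves differed very little but evenly. Of 68 measured cytosolic ribosomal protein genes 63 were above 0, with a median of 0.10 and a range from -0.13 (RPL27A) to 0.32 (RPL8), so none reached 1.5-fold. Mitochondrial ribosomal proteins had 65 of 75 above 0 (median 0.22), led by MRPS23 (0.00 to 0.88), and 7 at 1.5-fold. Proteasome subunits had 33 of 38 above 0 (median 0.16), led by the assembly chaperone PSMG1 (-0.77 to 0.07), and splicing factors 46 of 54 (median 0.16), led by HNRNPAB (0.61 to 1.505). Nuclear transport genes had 34 of 46 above 0 (median 0.27), with the importin IPO4 highest (-0.60 to 0.28). The contrast between the small spread of cytosolic ribosomal proteins and the wider spread of the genes that assemble them is visible in the plot of gene lists.

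Mitochondrial genes differed by function. Protein import genes had 24 of 29 above 0 and a median of 0.41, with 5 at 1.5-fold higher, and were led by the import motor chaperone HSPA9 (0.17 to 1.09). Respiratory chain and ATP synthase subunits had 46 of 67 above 0 and a median of 0.06, from SDHA (-0.49 ± 0.08, 2 probes) to cytochrome c, CYCS (0.65 ± 0.46, 2 probes). Among chaperones, 28 of 38 were above 0 (median 0.29), and both 2-fold members, the mitochondrial DNAJA3 (0.17 to 1.52) and the matrix protease LONP1 (-0.51 to 0.52), belong to mitochondria.

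Metabolic families were higher at defined steps. Amino acid transporters had 18 of 22 above 0, a median of 0.48 and 6 at 2-fold higher. They were SLC43A3, listed by its family (1.48 ± 0.43, 2 probes), SLC3A2, the heavy chain shared by several exchangers (1.40 ± 0.01, 2 probes), its partners SLC7A11 (1.39 to 2.57), a cystine carrier, and SLC7A5 (1.16 ± 0.46, 2 probes), a leucine carrier, SLC43A1 (-0.48 to 0.67) and the glutamine carrier SLC1A5 (-0.77 to 0.30). The SLC3A2 probes were within 0.02 of each other. Nucleotide synthesis genes had 24 of 31 above 0 and a median of 0.45, with the pyrimidine enzymes CAD (-0.76 to 0.49) and DHODH (-1.17 to 0.04) and the nucleoside diphosphate kinase NME1 (-1.32 to 0.08) at 2-fold.

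Serine, one-carbon and polyamine genes had 18 of 26 above 0 (median 0.28) and 5 at 2-fold. ODC1, which makes putrescine, went from 0.38 to 1.997 and SRM, spermidine synthase, from -0.77 to 0.53. In the one-carbon branch PSAT1 went from 1.04 to 2.31, MTHFD2 from 1.82 to 2.98, and MTHFD1L was at 1.04 ± 0.53 over 4 probes. Glycolysis genes had 20 of 29 above 0 (median 0.24). Their 2-fold members were hexokinase HK2 (-1.68 to 0.12; 1.80 ± 0.09, 2 probes), which starts the pathway, enolase ENO1 (1.34 ± 0.12, 2 probes) and lactate dehydrogenase LDHA (1.34 ± 0.07, 3 probes). By contrast, no cholesterol or fatty acid synthesis gene reached 1.5-fold in either direction (29 measured, median -0.05), and in the NAD and sirtuin list NAMPT was the only one of 18 to do so.

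Stress families lay on opposite sides of 0. Genes of the ATF4 response, which adapts cells to amino acid shortage, had 27 of 33 above 0, a median of 0.45 and 10 at 2-fold higher. These were SLC3A2, WARS1, PSAT1, SLC7A11, MTHFD2, SLC7A5, EIF4EBP1, SLC1A5, ATF3 and SESN2 (1.72 to 2.72), an inhibitor of mTORC1 signalling. Each of these 10 also stands on another list and is counted there too. Members short of 2-fold included DDIT3 (-0.03), PPP1R15A (0.01), ASNS (0.44), ATF4 itself (0.50) and TRIB3 (0.74). Folding and secretion genes of the endoplasmic reticulum lay on the other side, with 27 of 38 below 0, a median of -0.19, none at 1.5-fold higher and 8 at 1.5-fold lower. SYVN1, the ubiquitin ligase of ER-associated degradation (1.10 to -0.24; -1.35 ± 0.03, 2 probes), its partner HERPUD1 (3.08 to 1.94) and the disulfide isomerase PDIA4 (-0.12 to -1.16) were 2-fold lower. HERPUD1 is also the only ATF4-list member that was 2-fold lower.

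Cell cycle families differed between phases. DNA replication genes had 33 of 45 above 0 (median 0.20), led by the clamp loader subunit RFC3 (1.27 to 2.17), with none at 2-fold. Mitosis genes had 40 of 53 below 0 (median -0.14), with ANLN, the cytokinesis scaffold anillin (-2.45 to -3.73, below the reference on both arrays), at 2-fold lower. Of the G1 regulators, CDK6 was 2-fold higher (0.72 to 1.92; 1.204 ± 0.124, 2 probes), and 16 of 25 were above 0 with a median of 0.03.

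Death and survival genes showed few large differences. BCL2L1 was the only BCL2 family gene past 2-fold, and 13 of the 20 measured were below 0 (median -0.11). BCL2 itself was at 1.87 and 1.86, and the 4 probes of the pro-apoptotic BCL2L11 ranged from -0.27 to 0.35. No caspase, IAP or adaptor passed 2-fold (24 measured, median -0.05); the inhibitor of apoptosis BIRC2 was highest (0.05 to 0.94) and CASP9 lowest (-0.43 ± 0.02, 2 probes). In the TNF superfamily TNFRSF21, death receptor 6 (0.35 to -0.81), and the adaptor TRAF4 (-0.12 to -1.17) were 2-fold lower among 21 measured. The p53 target list had a median of -0.01 and 12 of 26 above 0, with SESN2 as its only 2-fold member.

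RAB GTPases of membrane traffic had 15 of 47 above 0 (median -0.10), with RAB38 2-fold lower and RAB32 2-fold higher (-5.93 to -4.72). RAB32 was at 0.63, short of 2-fold, with all probes that had a value on both RC-K8 arrays. In RC-K8-R RAB32 was also 2-fold higher (1.18). Lysosome genes lay near the background, with 20 of 51 above 0 (median -0.07) and LYST alone past 2-fold. Chromatin modifiers mutated in lymphoma had 13 of 18 below 0 (median -0.11) and none at 2-fold; TBL1XR1 was highest at 0.98, with its 6 probes between -0.56 and 1.51.

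The values of RC-K8-R, which come from other arrays, are set beside these as a description. The 193 higher genes had a median difference of 0.03 in that line and the 224 lower genes one of 0.01. Of the 417 genes, 381 were within 1.5-fold there and 13 were past 2-fold. Over all genes 3.29% were beyond 1.5-fold in RC-K8-R, and 0.342% and 0.602% were past 2-fold higher and lower. The 417 genes thus passed both limits more often than genes at large. Of the genes with several probes, NAMPT was at 0.10, ZNRF1 at -0.09, FKBP5 at -0.03, CREM at -0.09 and MKNK2 at 0.17. IL2RA and BCL2L1 lay further from 0, at -0.39 and 0.34. With 1 array a side, whether the lines differ was not tested. Differences in the single RC-K8 cultures that are unrelated to IL-21 cannot be told apart from the response.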

How the data were processed

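Sample RNA (Cy5) and a common human reference RNA (Cy3) were hybridised to 2-colour Agilent arrays, per the labels. The deposited values, read here as log2, are 1 ratio per probe and array. The log base and the steps of scanning, correction, normalization and spot filtering are nowhere stated among the sources read here. The deposited array medians were -0.107 (untreated) and -0.123 (treated RC-K8). Direction follows from the dyes and marker genes.

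Of 31095 probes, 25570 had 1 gene symbol in the platform annotation, 28 had several, and 5497 were not listed and stayed unnamed. A RefSeq gene table (GRCh38.p14) matched 25541, and promoter windows came from RefSeq on that build (10692 measured genes matched).

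The median of the 23260 probes that all 4 arrays measured was subtracted from each array. Per-gene levels are medians over probes, so for genes with 3 or more probes they need not subtract to the difference. Genes were named by rule: the 20 highest and lowest, the 15 highest and lowest with several probes, list members at 2-fold (otherwise the list's extremes), the genes of the study, and the 3 nearest the limit on each side. Members and lists were chosen with earlier results of these data known. The values of 1 list are not reported here. There were 13 alternative settings. The calculation was tested on simulated data. Python 3.11.15, pandas 2.3.3, numpy 2.4.6 and statsmodels 0.14.6 were used.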

Additional observations from a re-analysis of the deposited data

Results flagged for a closer look

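Of 13 genes past 2-fold in both lines, 7 had opposite signs and the rest shared a sign. Those sharing a sign were HIC1, ZIC1, RAB32 and MISP, higher in both lines, and LY6K and P2RY6, lower in both. The 7 are given here, and whether the lines differ was not tested. In RC-K8 the values were 2.08 for RNF182, 1.87 for GNG12, 1.37 for SPOCK1, -1.35 for SPAG16, -1.21 for LOC154761, -1.06 for EVA1A and -1.03 for TMEM45A. In RC-K8-R they were -1.12, -1.12, -1.88, 1.93, 1.41, 1.25 and 1.67 in the same order. Each of the 7 rests on 1 probe. Their mean ratios on the RC-K8 arrays lay between -3.60 and -1.60, and in 5 of them below -2.

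Probes without a gene name are used in no gene count. Of 3975 such probes with a value on all 4 arrays, 139 were past 2-fold in RC-K8, 90 higher (2.26%) and 49 lower (1.23%), from -4.09 to 3.01. Among named probes 1.73% were higher and 1.85% lower.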

How the results depend on the processing

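The counts of genes 2-fold higher and lower (193 and 224) ran from 167 to 275 and from 165 to 259 under the other scalings, probe summaries and probe filters, all within 1.5 times. They moved to 424 and 405 of 23260 with every probe as its own feature. For genes with 2 or more probes in 1 direction they moved to 58 and 55 of 2728. Both totals are unlike the 13446 genes of the main setting, so these counts are not comparable as numbers. Over the same 13446 genes the counts moved to 782 and 798 at 1.5-fold and to 49 and 43 at 3-fold. With the values read as natural logs they moved to 548 and 530. Of the 46 list medians, 38 kept their sign under the 8 settings run on them, 21 above 0 and 17 below, and the 8 that did not were at most 0.07 from 0. Of 137 named genes at 2-fold, none reversed, and 7 moved by over 1.5 times. With the probe of the highest mean ratio CD80 was at 0.405, IL16 at -0.83, RPS6KA5 at 0.21 and TMPRSS3 at 0.88. With probes that had a value on both RC-K8 arrays LHFPL2 was at -1.25, NR4A1 at -0.42 and RAB32 at 0.63. These counts follow from the threshold, the unit counted or the probes that enter, by construction. No paired analysis was possible because each group has 1 array. Signal over background is not known, so how well ratios far below the reference were measured is not known either.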

Other observations

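The genes in this paragraph lie outside the lists and were picked after their values were seen, because they were past 2-fold, so they say nothing about any group as a whole. Higher in RC-K8 were the nucleolar or RNA-processing genes MYBBP1A (1.29), DHX33 (1.28), PUM3 (1.23), CMSS1 (1.18), CCDC86 (1.16), RRP15 (1.11), EXOSC5 (1.08), a subunit of the RNA exosome, DHX37 (1.06), DDX31 (1.05) and PDCD11 (1.02). Lower were the actin-bundling protein PLS3 (-1.94), ABLIM3 (-1.66), the spectrin-binding ADD3 (-1.40), the linker MACF1 (-1.41), the motor MYO10 (-1.33), MARCKS (-1.21), VASP (-1.09), LASP1 (-1.09), the formin FMNL1 (-1.03) and the integrin-linked kinase ILK (-1.02). Higher were JMY (2.50), the integrin activator FERMT2 (1.64) and ARPC5L (1.18), a subunit of the ARP2/3 complex.

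Some genes had a value on 1 of the 2 RC-K8 arrays and enter no difference, since a blank cell says nothing of the level. On the treated array alone were 468 genes, the highest being IRF8 (6.11), IFNG (4.65), AIM2 (3.18), HSD11B1 (3.03) and RGS1 (2.98). PRDM1, the plasma cell regulator, was at 1.47. IRF8, AIM2 and RGS1 had values of 4.88, 3.14 and 4.25 on the untreated RC-K8-R array, whereas IFNG, HSD11B1 and PRDM1 were blank on both RC-K8-R arrays. On the untreated array alone were 618 genes, led by IRAG2 (3.74), TNFRSF17, the receptor BCMA (3.59), EPHB1 (3.19), C6orf58 (3.05) and MYADML2 (2.98), each of which also had values above 3 on both RC-K8-R arrays.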
